A study of Mus musculus with 16 samples.

Results

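Retinoic acid, the active form of vitamin A, controls how keratinocytes divide and differentiate, and it also acts on the hair follicle and the sebaceous gland. Cells take up retinol, oxidize it to retinaldehyde and then to retinoic acid, and hand the acid to receptors in the nucleus with the help of small binding proteins. The receptors are heterodimers of a retinoic acid receptor (RAR) and a retinoid X receptor (RXR), and the same RXR also pairs with the vitamin D, thyroid hormone, PPAR and liver X receptors. The genes described here are 9 members of this system, taken as the rows of the count table that carry their Entrez identifiers, out of 27179 genes in the table. They are the RAR genes Rara, Rarb and Rarg, the RXR genes Rxra and Rxrb, the cellular retinoic acid-binding protein genes Crabp1 and Crabp2, and the enzyme genes Dhrs9 and Aldh1a3.

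Expression was measured by bulk RNA-seq of poly(A) RNA from epidermal cells of aged C57BL/6J mice, 4 injected with antibodies that neutralize IL-17A/F (anti-IL-17A/F) and 4 with control IgG. IL-17A and IL-17F are cytokines of lymphoid cells that act on keratinocytes. Injections were intraperitoneal, 3 a week for 12 weeks, starting at 73 weeks of age, and the study used mostly female mice. The epidermis was separated from whole-torso skin with dispase, so the samples held interfollicular keratinocytes together with parts of the hair follicles, sebaceous glands and resident immune cells. Each library was sequenced in 2 batches, and the 2 runs of a mouse were summed.

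Totals were 42816157 to 52255040 counts in the anti-IL-17A/F-treated mice and 50533151 to 53721153 in the IgG control mice. Markers of basal keratinocytes summed to 21377 to 24113 CPM, the counts of a gene scaled to library size, in the treated mice and 20308 to 26647 CPM in the control mice, and those of suprabasal keratinocytes to 21871 to 24480 and 20240 to 25398 CPM. Markers of fibroblasts summed to 24.9 to 44.4 CPM in the treated and 19.7 to 38.9 CPM in the control mice. Other marker lists had lower or higher values in the treated mice, with 0 genes called in any list and none of their genes at 0. Cornified layer markers were lower in 6 of 6 genes (median log2 fold change -0.54), T cell and macrophage markers in 7 of 7 each, and Langerhans cell markers in 6 of 7. Langerhans cell marker sums were 389 to 470 CPM in treated mice, against 331, 308, 609 and 603 CPM in control mice 1 to 4. For macrophages the sums were 12.2 to 18.4 CPM, against 11.6, 12.7, 31.3 and 27.6 CPM. For T cells they were 136 to 192 CPM, against 139, 163, 214 and 208 CPM. In these immune lists control mice 3 and 4 lay above every treated mouse, and control mice 1 and 2 did not. Hair follicle stem cell markers were higher in the treated mice in 6 of 7 genes and endothelial markers in 6 of 6. A bulk measurement cannot tell fewer cells of a type from less RNA per cell. CPM values throughout are relative to the total of each mouse after scaling by its TMM factor, and levels are compared between genes only as CPM per kb of exonic length.

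The promoter windows that RefSeq gives for the members (build GRCm38.p6) were searched for the sequence to which RAR and RXR bind as a pair. That sequence is a direct repeat of half-sites, each of them the consensus AGGTCA, the variant AGTTCA, the variant GGGTCA or the variant GGTTCA, with 1, 2 or 5 bases between the half-sites (DR1, DR2 and DR5). Both strands were searched, in windows of 250 bases before and 50 after a transcription start. Windows were found for 7 of the 9 members, 13 in all, and not for Crabp2 and Aldh1a3. One member, Rarb, had a match, a DR5 that begins 53 bases before the start. It is shown because Rarb is a classical direct target of retinoic acid. The window lies inside the gene, which spans 16430839 to 17082331 on the minus strand. Counts of Rarb are for the whole gene, so they are not the level of transcripts from this start alone. The 250 bases before the start (chr14:16575477-16575726, minus strand) read 5′ to 3′, with the half-sites in capitals:
Rarb: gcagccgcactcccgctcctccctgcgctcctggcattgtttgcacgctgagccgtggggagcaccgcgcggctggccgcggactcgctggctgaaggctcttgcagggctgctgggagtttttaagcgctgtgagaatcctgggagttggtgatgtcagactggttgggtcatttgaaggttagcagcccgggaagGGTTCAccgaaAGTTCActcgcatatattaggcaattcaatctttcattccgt
Of 32851 windows in the mouse table, 0.0974% held such a DR5, 0.268% a DR2 and 0.222% a DR1. The same search over the windows of 55 of 73 further genes of the retinoid pathway matched 2 of them, Bco1 with a DR1 and Cyp26a1, the retinoic acid hydroxylase, with a DR5. The Cyp26a1 stretch (chr19:37697761-37697807, plus strand) carries its half-sites in the reverse orientation, and it is shown for comparison with that of Rarb:
Cyp26a1: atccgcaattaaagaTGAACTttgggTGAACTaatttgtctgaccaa
These matches are descriptions of the letters in the windows, and binding was not measured.

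The 9 genes covered a wide range of levels. Per kb of exonic length Rarg and Rxra were the most abundant, at means of 124.8 and 120.7 CPM per kb over the 8 mice. Their ranges overlapped, and Rarg was above Rxra in 6 of 8 mice. Crabp2 followed at 72.2 CPM per kb, then Rxrb at 24.5, Rara at 11.2 and Crabp1 at 4.04 CPM per kb. The order from Rxra down through Crabp2, Rxrb, Rara and Crabp1 to Dhrs9 held in 8 of 8 mice, without overlap between neighbours. At the low end Dhrs9 and Rarb had nearly equal means of 0.566 and 0.563 CPM per kb, and Dhrs9 was the higher in 4 of 8 mice. Aldh1a3 was lowest at 0.378 CPM per kb, below Rarb in 8 of 8 mice, although the ranges of these genes over the mice overlapped. With the exons of all GENCODE transcripts as length, an alternative added after seeing the data, Rxra was first at 112.8 and Rarg second at 99.4 CPM per kb, Dhrs9 (0.566) was above Rarb (0.332), and the other means kept their order.

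**Figure D1:**
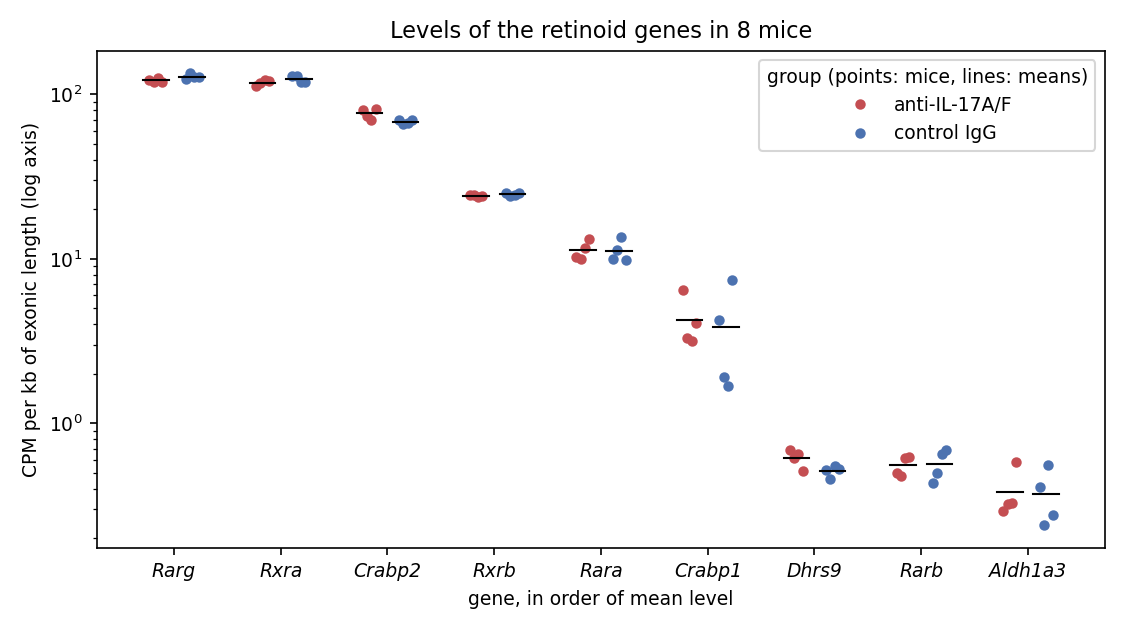
CPM per kb of exonic length (log axis) of the 9 genes in 8 mice, one point per mouse, with anti-IL-17A/F-treated mice in red, IgG control mice in blue and lines at the group means. Rarg and Rxra lie above 100, Crabp1 between 1.69 and 7.49, and Dhrs9, Rarb and Aldh1a3 below 0.7.

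Among the RAR genes, Rarg encodes the main epidermal RAR, and Rara encodes a widely expressed receptor. Rarg (chromosome 15, 102234938 to 102257522) had 415.6, 405.6, 428.1 and 403.6 CPM in the anti-IL-17A/F-treated mice, against 419.8, 454.8, 430.4 and 429.4 CPM in the IgG control mice. The groups overlapped, as treated mouse 3 was above control mouse 1. The means were 413 ± 11.2 CPM in treated and 434 ± 14.9 CPM in control mice (SD, n = 4 each), with a log2 fold change of treated over control of -0.069 (SE 0.047).

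Rara (chromosome 11, 98927800 to 98974942) had 42.7, 42.1, 49.1 and 54.9 CPM in the treated mice, against 41.9, 47.2, 56.5 and 41.3 CPM in the control mice. One mouse in each group stood above the others, treated mouse 4 and control mouse 3, and the groups overlapped over nearly their whole ranges. Rara averaged 47.2 ± 6.05 CPM in treated and 46.7 ± 7.02 CPM in control mice (log2 fold change 0.015, SE 0.12).

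Rarb (chromosome 14, 16430839 to 17082331), which carries the DR5 shown above, had 1.55, 1.49, 1.92 and 1.96 CPM in the treated mice, against 1.35, 1.56, 2.03 and 2.15 CPM in the control mice. These values rested on 82, 64, 98 and 101 counts in the treated mice and 68, 81, 106 and 110 counts in the control mice. In each group the mice numbered 3 and 4 were higher than those numbered 1 and 2, and the groups overlapped. The log2 fold change was -0.034 (SE 0.19). Part of this signal may not be Rarb, because 57.7% of its exonic length lies opposite exons of Top2b, a DNA topoisomerase gene on the other strand, and whether reads were counted by strand was not stated in the methods. Top2b had 16531 to 20853 counts per mouse, and the Rarb counts were 0.372% to 0.579% of them. What share of the Rarb counts came from Top2b was not tested. No other member shared exonic sequence with another gene.

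Of the RXR genes, Rxra encodes the partner that predominates in epidermis, and Rxrb a widely expressed one. Rxra (chromosome 2, 27676445 to 27763319) had 572, 595, 621 and 616 CPM in the treated mice, against 656, 657, 608 and 605 CPM in the control mice. The 2 lowest values belonged to treated mice and the 2 highest to control mice, and the rest overlapped. The means were 601 ± 22.5 CPM in treated and 631 ± 28.8 CPM in control mice (log2 fold change -0.070, SE 0.054).

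Rxrb (chromosome 17, 34031812 to 34038403) had 71.1, 71.1, 68.2 and 69.4 CPM in the treated mice, against 72.4, 69.9, 70.7 and 73.1 CPM in the control mice. It was the steadiest of the 9 genes, with an SD of 2.25% of the mean over the 8 mice, and the groups overlapped (log2 fold change -0.032, SE 0.037). Rxrg, the RXR gene of muscle and brain that is not among the members, had 6 counts over the treated mice and 6 over the control mice. The ratio per total count was 1.06 (exact 95% interval 0.282 to 3.95, counting error only).

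The binding proteins were measured at very different levels. CRABP2 delivers retinoic acid to RAR in the nucleus, and its gene is expressed in differentiating keratinocytes. Crabp2 (chromosome 3, 87948693 to 87953372) had 74.7, 68.8, 65.2 and 76.1 CPM in the anti-IL-17A/F-treated mice, against 64.5, 61.1, 62.1 and 65.1 CPM in the IgG control mice. Every treated mouse was above every control mouse, by 65.24 against 65.13 CPM at the closest pair. Crabp2 averaged 71.2 ± 5.07 CPM in treated and 63.2 ± 1.94 CPM in control mice, a log2 fold change of 0.17 (SE 0.056), or 1.13-fold. It did not pass the edgeR test (unadjusted p = 0.0136, adjusted p = 0.984), nor DESeq2 (unadjusted p = 0.0094, adjusted p = 0.815). The edgeR adjusted p of 0.984 was the smallest of all tested genes, and Rarg, Rxra, Rxrb and Dhrs9 had the same value. Cornified layer markers, lower in 6 of 6 genes, summed to 132 to 280 CPM in treated and 240 to 367 CPM in control mice. Hair follicle stem cell markers, higher in 6 of 7 genes (median log2 fold change 0.39), summed to 334 to 459 CPM in treated and 265 to 422 CPM in control mice. The part of these cells in the Crabp2 values was not tested.

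CRABP1 is the other cellular retinoic acid-binding protein, known in skin from the dermal papilla and dermal fibroblasts. Crabp1 (chromosome 9, 54764748 to 54773110) had 5.17, 2.65, 2.53 and 3.27 CPM in the treated mice, against 3.43, 1.54, 1.36 and 6.00 CPM in the control mice. The highest and the lowest values were both in the control group, and the treated mice lay between them. Over the 8 mice the SD was 50.3% of the mean, the largest of the 9 genes. The log2 fold change was 0.15 (SE 0.46), and it was -0.13 without treated mouse 1 and 0.69 without control mouse 4. Markers of the dermal papilla, 8 genes of which 2 of 6 tested were higher in the treated mice and none was at 0, summed to 31.9 to 40.5 CPM in treated and 28.5 to 37.2 CPM in control mice. Those of fibroblasts, 9 genes of which 3 of 8 tested were higher and none was at 0, had the sums given above. In control mouse 4, where Crabp1 was highest, the sums were 28.5 CPM for the dermal papilla and 24.0 CPM for fibroblasts, and in treated mouse 1 they were 37.7 and 33.5 CPM.

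**Figure D2:**
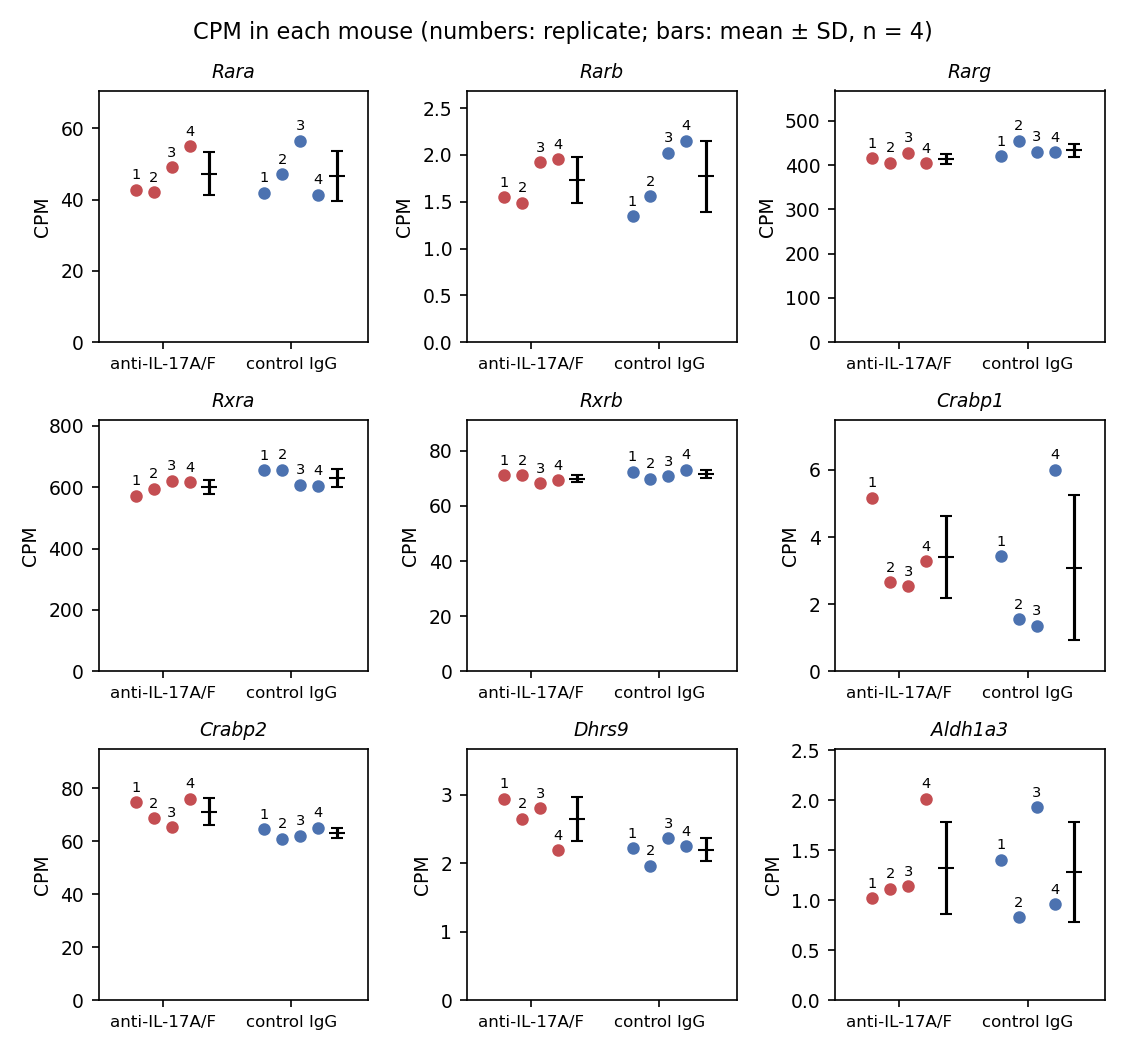
CPM of each gene in each mouse (y axes start at 0), with anti-IL-17A/F-treated mice in red on the left and IgG control mice in blue on the right; small numbers are replicate numbers and bars show mean ± SD (n = 4). The groups are apart in Crabp2 alone, where the treated mice range from 65.24 to 76.1 CPM and the control mice from 61.1 to 65.13 CPM.

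The enzymes were near the low end of what was measured. Dhrs9 (chromosome 2, 69380462 to 69403086) encodes a short-chain dehydrogenase that can oxidize retinol. It had 2.94, 2.65, 2.81 and 2.19 CPM in the treated mice, against 2.22, 1.97, 2.37 and 2.25 CPM in the control mice. Treated mice 1 to 3 were above all control mice, and treated mouse 4 was below all but control mouse 2. Dhrs9 averaged 2.65 ± 0.328 CPM in treated and 2.20 ± 0.170 CPM in control mice, with a log2 fold change of 0.27 (SE 0.13), the largest of the 9 genes.

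Aldh1a3 (chromosome 7, 66390892 to 66427477) encodes a dehydrogenase that turns retinaldehyde into retinoic acid. It had 1.02, 1.12, 1.14 and 2.01 CPM in the treated mice, against 1.41, 0.83, 1.93 and 0.96 CPM in the control mice. One treated and one control mouse, numbers 4 and 3, were well above the rest of their groups, and the groups overlapped. The log2 fold change was 0.046 (SE 0.32), and it was -0.23 without treated mouse 4. It differed in sign between the sequencing runs of the same libraries, at -0.21 (SE 0.33) in batch 1 and 0.31 (SE 0.34) in batch 2. Treated mouse 4 also had the highest summed markers of the hair matrix, shaft and inner root sheath, at 280 CPM, and of melanocytes, at 128 CPM. It was highest as well for hair follicle stem cells (459 CPM), fibroblasts (44.4 CPM), endothelial cells (13.2 CPM) and adipocytes (3.85 CPM). In the remaining marker lists another mouse was highest. The list of hair matrix, shaft and inner root sheath ranged from 62.6 to 280 CPM in treated and from 71.8 to 166 CPM in control mice. In that list 10 of 10 measured genes were higher in the treated mice. The melanocyte list ranged from 48.5 to 128 CPM in treated and from 48.7 to 75.5 CPM in control mice, with 7 of 7 genes higher. None of these markers was at 0, and their part in the Aldh1a3 values was not tested.

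Set against each other within a family, the same gene held most of the level in every mouse, while the share of the minor genes varied, most of all that of Crabp1, from 2.47% to 9.66% of the CRABP level over the 8 mice. Rarg made up 91.2 ± 1.09% of the summed RAR level per kb in the anti-IL-17A/F-treated mice and 91.6 ± 1.10% in the IgG control mice (SD, n = 4 each). Rara supplied 8.43 ± 1.04% in treated and 7.99 ± 1.08% in control mice, and Rarb supplied at most 0.505% in any mouse. Rxra held 82.9 ± 0.793% of the RXR level in treated and 83.3 ± 0.781% in control mice, and Rxrb nearly all of the remainder, since Rxrg reached no more than 0.0175%. Crabp2 held 92.6 to 95.7% of the CRABP level in treated mice and 90.3 to 97.5% in control mice. Summed over each family, the treated and control mice averaged 134 ± 3.54 and 139 ± 5.02 CPM per kb for RAR, 142 ± 4.0 and 148 ± 5.50 CPM per kb for RXR, and 80.7 ± 6.57 and 71.7 ± 4.66 CPM per kb for CRABP. These shares and sums are descriptions and were not tested. They depend on the exonic length assigned to each gene.

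**Figure D3:**
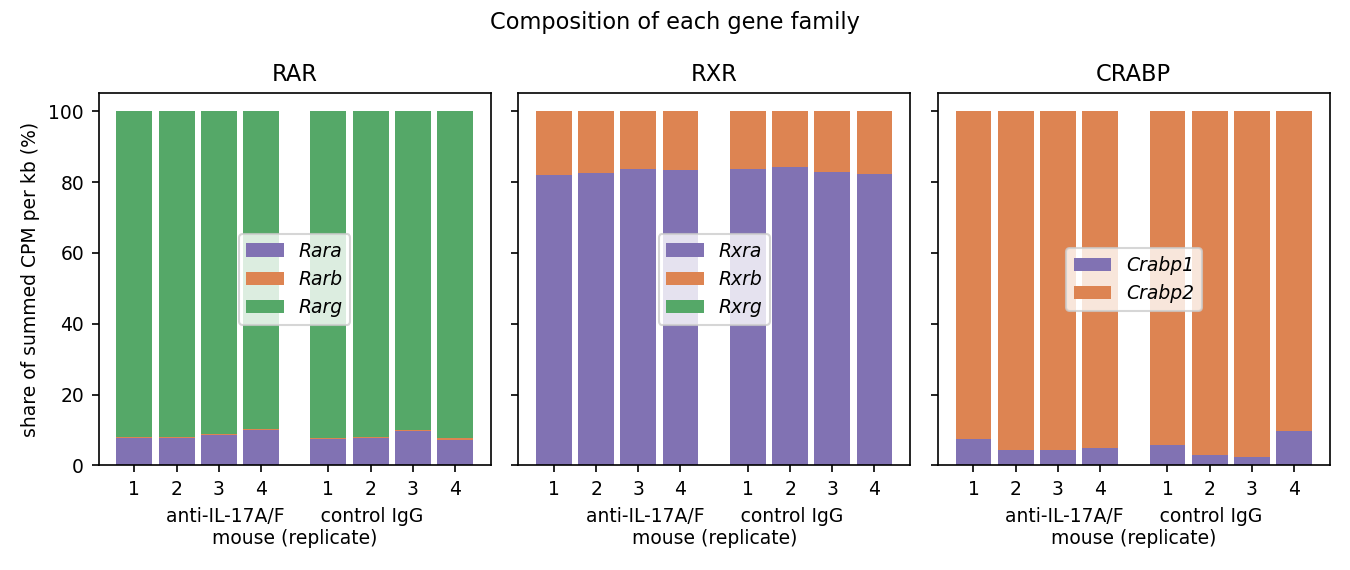
Share (%) of each gene in the summed CPM per kb of the RAR, RXR and CRABP families, one stacked bar per mouse, with the 4 anti-IL-17A/F-treated mice left of the 4 IgG control mice in each panel. Rarg, Rxra and Crabp2 hold at least 89.6%, 82.0% and 90.3% in every mouse.

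The comparison asked whether the retinoid genes of aged epidermis differed after IL-17A/F blockade. By the quasi-likelihood test of edgeR, with Benjamini-Hochberg adjustment over 16335 tested genes and calls at an adjusted p below 0.1, 0 of the 9 members were called, against 0 genes in all (0%). All 9 had passed the filter on low counts, with adjusted p of 0.984 to 0.995. DESeq2 called 0 of the 9 members, against 9 of all genes (0.0551%), and limma-voom 0 of the 9 and 0 of all. At an unadjusted p below 0.05 in edgeR 1 member, Crabp2, was found, against 658 genes in all (4.03%). The groups did not overlap in that 1 member, against 395 genes in all (2.42%). A single gene among 9 cannot be read against such shares.

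In direction, 5 members were higher in the treated mice (Rara, Crabp1, Crabp2, Dhrs9 and Aldh1a3) and 4 were lower (Rarb, Rarg, Rxra and Rxrb), with a median log2 fold change of 0.015. The sign of Rara, Rarb, Rxrb, Crabp1 and Aldh1a3 changed under at least 1 alternative, and that of the other 4 under none. For 5 of the 9 the fold change was smaller than its SE. The median of the absolute log2 fold changes was 0.069 over the members and 0.071 over all tested genes. The 3 most abundant receptor genes, Rarg, Rxra and Rxrb, thus had differences of at most 0.070 in size, with SEs of 0.037 to 0.054.

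**Figure D4:**
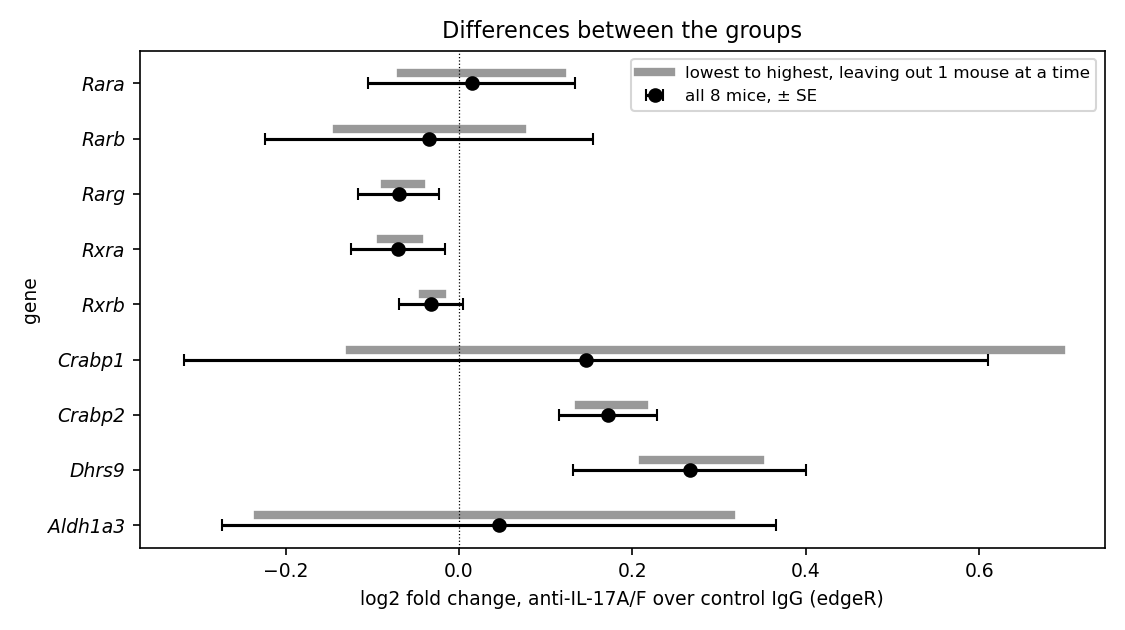
Log2 fold change of anti-IL-17A/F over control IgG for the 9 genes, with points for the fit on 8 mice, whiskers for ± SE, and grey bars from the lowest to the highest value when 1 mouse is left out. The bars of Rarg, Rxra, Rxrb, Crabp2 and Dhrs9 stay on one side of 0, and that of Crabp1 runs from -0.13 to 0.69.

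The spread between mice differed from gene to gene. The SD of log2 CPM over the 8 mice was 0.74 for Crabp1, 0.45 for Aldh1a3 and 0.24 for Rarb, and 0.032 to 0.20 for the other members. For these 3 variable genes the tested genes of at least 5 CPM with the most similar pattern over the 8 mice were looked up, out of 11190. For Crabp1 these were Pdcd5-ps (Pearson r = 0.97, Spearman rho = 0.98), Pdzrn4 (r = 0.94) and Smim24 (r = 0.94). Without control mice 3 and 4, the farthest from the median of Crabp1, r was 0.97, 0.94 and 0.88. For Aldh1a3 they were Xrcc2 (r = 0.97), BC055324 (r = 0.96) and Limd2 (r = 0.94), and without treated mouse 4 and control mouse 3 r was 0.98, 0.80 and 0.84. For Rarb they were Pkmyt1 (r = 0.98), Ier3 (r = 0.97) and Flg2 (r = 0.96), and r was 0.98, 0.96 and 0.95 without control mice 1 and 4. Being the highest of so many over 8 mice, these correlations describe likeness only.

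Around the members, 8 lists of genes of retinoid uptake, storage, oxidation, breakdown, partnership, coregulation and response were examined. Together they held 73 further genes, of which 60 passed the filter. None was called by edgeR or by DESeq2, 3 had an unadjusted p below 0.05 (Ttr, Bco1 and Rarres1, named after their values were seen), and the groups overlapped in each. In direction 16 were higher and 44 lower in the treated mice (median log2 fold change -0.068), where 50.1% of all tested genes were higher. Between 38 and 48 of them were lower under the alternatives tried, with the fewest without control mouse 1, and the split was not tested.

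Before the receptors come uptake and storage. Of 7 tested genes for the uptake, transport and binding of retinol, 6 were higher and 1 was lower, with a median of 0.051. Without treated mouse 2 it was 3 higher and 4 lower, with a median of -0.016. Fabp5, a fatty acid-binding protein that can also carry retinoic acid to PPARδ, had a mean of 154.6 CPM per kb and was above Rarg in 7 of 8 mice. That rank rests on an exonic length of 987 bases, and with the 3567 bases of all GENCODE transcripts its mean was 42.8 CPM per kb, below Rxra, Rarg and Crabp2. It averaged 140 ± 22.6 CPM in treated and 166 ± 33.8 CPM in control mice (log2 fold change -0.25, SE 0.16, and -0.13 without control mouse 2). Rbp2, a cellular retinol-binding protein gene, averaged 16.9 ± 2.00 CPM in treated and 16.3 ± 2.28 CPM in control mice. Stra6, the receptor for retinol-binding protein, averaged 13.2 ± 5.70 CPM in treated and 10.8 ± 3.95 CPM in control mice.

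For retinyl ester formation and hydrolysis 1 of 4 tested genes was higher and 3 were lower (median -0.13, and -0.063 without control mouse 2). Lrat, the enzyme that stores retinol as its ester, had 1.11, 0.93, 2.53 and 5.29 CPM in the treated mice, against 12.18, 4.41, 2.10 and 2.29 CPM in the control mice. Control mouse 1 stood far above the rest, and the log2 fold change of -1.08 had an SE of 0.69. It was -0.24 without control mouse 1 and -1.77 without treated mouse 4. Awat2 and Dgat1, acyltransferases that can form retinyl esters, had log2 fold changes of 0.14 (SE 0.35) and -0.13 (SE 0.16), and Lipe, a lipase, of -0.13 (SE 0.12).

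The enzymes that oxidize retinol or reduce retinaldehyde, the group to which Dhrs9 belongs, were 1 higher and 14 lower of 15 tested, with a median of -0.14 and a range of -0.28 to 0.031, none called. Bco1, a carotene oxygenase on the same list that makes retinaldehyde from carotene, was at -0.59. Without control mouse 1 the 15 enzymes were 11 lower with a median of -0.062, without control mouse 2 they were 12 lower with -0.067, and without treated mouse 3 they were 13 lower with -0.067. Dhrs9 itself, at 0.27, lay outside that range. The most abundant were Sdr16c5 and Sdr16c6, retinol dehydrogenases at 140.7 and 135.1 CPM per kb, and Rdh12, a retinaldehyde reductase at 68.7 CPM per kb. Sdr16c5 averaged 176 ± 17.3 CPM in treated and 214 ± 43.4 CPM in control mice (log2 fold change -0.28, SE 0.14), and Rdh12 averaged 108 ± 5.36 and 123 ± 17.6 CPM (-0.19, SE 0.094, and -0.093 without control mouse 2). Dhrs3, another reductase, had a log2 fold change of -0.10 (SE 0.090), and Rdh10, which makes retinaldehyde, of 0.031 (SE 0.092). Markers of sebocytes were also lower in the treated mice in 9 of 10 genes, none at 0, and summed to 6431 to 9550 CPM in treated and 7624 to 13634 CPM in control mice. Their part in the enzyme values was not tested.

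Of the other Aldh1a genes, Aldh1a7 was the most abundant at 24.6 CPM per kb. Aldh1a1 had 3.02 CPM per kb and Aldh1a2 had 0.206 CPM per kb, against 0.378 CPM per kb for Aldh1a3. Aldh1a1 and Aldh1a7 are close paralogs, and reads that mapped to both were not counted, so their levels are uncertain. Their log2 fold changes were -0.075 (SE 0.19) for Aldh1a1, -0.023 (SE 0.16) for Aldh1a7 and 0.40 (SE 0.52) for Aldh1a2. The value of Aldh1a2 was 0.017 without treated mouse 4 and 1.04 without control mouse 4. Of the enzymes that break retinoic acid down, Cyp26b1 was measured at 16.3 ± 6.17 CPM in treated and 16.8 ± 8.02 CPM in control mice (log2 fold change -0.042, SE 0.41). Cyp26a1, whose promoter carries the other DR5, had 2 counts over the treated and 3 over the control mice, and Cyp26c1 had 1 and 4 counts.

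Among the other nuclear receptors that pair with RXR 2 were higher and 10 lower of 12 tested (median -0.11). Without control mouse 1 it was 5 higher and 7 lower, with a median of -0.047. Vdr, the vitamin D receptor, averaged 428 ± 34.5 CPM in treated and 392 ± 64.4 CPM in control mice (log2 fold change 0.13, SE 0.11, and 0.054 to 0.24 leaving out 1 mouse). Ppard and Nr1h2, for PPARδ and a liver X receptor, had log2 fold changes of -0.036 (SE 0.074) and -0.044 (SE 0.057). Nr4a1, an immediate-early gene, ranged from 44.3 to 361 CPM in treated and from 59.8 to 768 CPM in control mice (-0.84, SE 0.78, and -0.064 without control mouse 3). Of the coregulators 2 were higher and 7 lower of 9 tested (median -0.048, and -0.020 without treated mouse 4), and Ncor1, a corepressor gene, and Ncoa3, a coactivator gene, had log2 fold changes of -0.036 and -0.063 with SEs of 0.046 and 0.043.

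The genes known to respond to retinoic acid, a list that includes Rarb and Crabp2, were 6 higher and 9 lower of 15 tested (median -0.042). Without control mouse 4 it was 8 higher and 7 lower with a median of 0.072, and without control mouse 2 the median was -0.17. Rarres1, the most abundant at 102.0 CPM per kb, had 115.2, 117.5, 136.6 and 123.7 CPM in the treated mice, against 167.4, 167.0, 133.2 and 121.2 CPM in the control mice. Control mice 1 and 2 were above all the others, and control mice 3 and 4 lay among the treated mice (log2 fold change -0.26, SE 0.11, edgeR adjusted p = 0.984). No direction was thus shared by the response genes, with Crabp2 at 0.17, Rarb at -0.034, Rarres1 at -0.26 and Dhrs3 at -0.10.

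**Figure D5:**
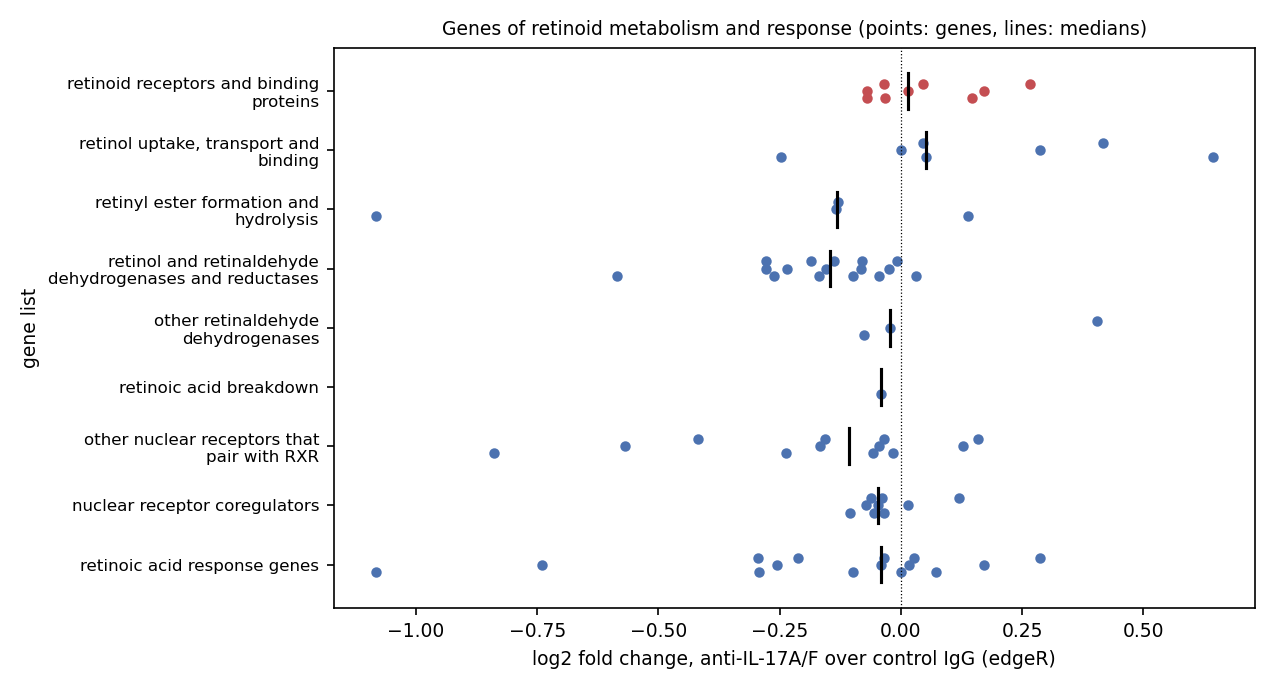
Log2 fold change of anti-IL-17A/F over control IgG for the tested genes of each list, one point per gene with a line at the median, the 9 members in red at the top and the other lists in blue. Medians run from -0.15 for the dehydrogenases and reductases with Bco1 to 0.051 for uptake, transport and binding, and no gene was called.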

How the data were processed

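Epidermal RNA of 8 mice, 4 per group by the labels, was sequenced as single-end 50-base reads. Per the study's methods the authors prepared stranded poly(A) libraries, aligned reads to mm10 with STAR 2.5.2b and counted them with featureCounts and its built-in annotation. Reads over several genes were counted for each, multimapping reads were not counted, the minimum mapping quality was 1 and duplicates were kept. The deposited table gives raw, whole-number counts of reads for each Entrez identifier in 16 columns. The 2 runs of each mouse were summed, as they differed by little more than sampling noise (chi-square per gene 0.996 to 1.06, against 12.1 to 41.4 between mice of a group). Of 27179 identifiers, 25275 (93%) matched a RefSeq symbol. Coordinates and promoters are from RefSeq (GRCm38.p6), and exonic lengths are the union of GENCODE M21 exons of transcripts with a RefSeq accession.

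The groups were compared with edgeR 4.0.16 (R 4.3.3; TMM, filterByExpr with a minimum count of 10 and total of 15, quasi-likelihood test, two-sided), which tested 16335 of 21658 genes with any count. The test was checked on simulated counts with differences larger than those of any member. That check does not tell how often differences of the members' size would be called. DESeq2 1.42.0, limma-voom with sample weights (limma 3.58.1), other scalings, no filter, a replicate block, leaving out each mouse and single sequencing batches were alternatives. The study's fit also had experimental batch as a covariate. The labels used here give 2 batches for each library, and whether these are that covariate is not stated. Nothing says whether mice of a group shared a litter or cage. Log2 CPM used a prior count of 2.

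The members, lists and tests were chosen with earlier results of these data known. Values are given for all members, for 14 pathway genes set in the design and for the 3 most abundant genes per list, except for genes that this rule takes and that are not reported here. Of the listed genes, Pnpla4 and Krt85 were not matched in the table. Levels of genes with a near-identical copy, and of genes overlapping another on the opposite strand, are uncertain.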

Additional observations from a re-analysis of the deposited data

Results flagged for a closer look

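In each group of 4 mice the highest and the lowest value of each named gene that passed the filter on low counts were compared with the rest. The gap to the nearest mouse was taken as a share of the group's range (Dixon's 95% critical value). Of 64 gene and group pairs looked at, 2 passed, where chance flags about 1 in 20. Aldh1a3 was at 2.01 CPM in anti-IL-17A/F-treated mouse 4, with the next mouse at 1.14 CPM, a gap of 0.879 of the range. Aldh1a2 was at 0.841 CPM in IgG control mouse 4, with the next mouse at 0.308 CPM, a gap of 0.844 of the range. Both genes were among the least abundant of those named, and 2 of 64 is not above that rate.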

How the results depend on the processing

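No member passed the threshold in any of 16 alternatives, over which the smallest adjusted p of a member was 0.688. The count of called genes was 0 except under DESeq2, which called 9. Of 144 member values over these alternatives, 126 kept their direction and 18 changed it, and Rarg, Rxra, Crabp2 and Dhrs9 never did. With limma-voom Rara was -0.040, Aldh1a3 -0.034, Cyp26b1 0.090 and Aldh1a7 0.042. With batch 1 runs alone Aldh1a3 was -0.21, and with batch 2 runs alone Rxrb was 0.0096, Rdh10 -0.0076, Ppard 6.1e-05 and Aldh1a7 0.0078. With total counts only Aldh1a7 was 0.0023. Leaving out 1 mouse gave -0.066 to 0.12 for Rara, -0.14 to 0.072 for Rarb, -0.13 to 0.69 for Crabp1, -0.23 to 0.31 for Aldh1a3, -0.035 to 0.47 for Stra6, -0.21 to 0.030 for Dgat1, -0.019 to 0.12 for Rdh10, -0.23 to 0.067 for Aldh1a1, -0.32 to 0.18 for Cyp26b1, -0.071 to 0.037 for Ppard, -0.0076 to 0.14 for Rbp2, -0.056 to 0.48 for Awat2, -0.18 to 0.025 for Sdr16c6, -0.13 to 0.18 for Aldh1a7 and -0.069 to 0.0061 for Nr1h2. The cause of these changes was not tested. With the replicate block 0 genes and 0 members were called, Crabp2 was 0.17, Crabp1 0.34 and Aldh1a7 0.0036. Same-numbered mice share only a number, and the correlations of their deviations from the group means were -0.27, 0.25, 0.19 and -0.14, with 4 of the 8 mice correlating best with their own number. With exons of all GENCODE transcripts for length, an alternative added after seeing the data, the shares were 90.0% for Rarg, 9.74% for Rara, 0.301% for Rarb, 86.3% for Rxra and 13.7% for Rxrb, averaged over 8 mice. Rarb, Aldh1a3, Dhrs9 and Crabp1 rested on the fewest counts, so counting error adds to their spread between mice.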
